A study of Mus musculus with 4 samples.

Results

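The cytoplasmic ribosomal protein genes encode the proteins that, with the ribosomal RNAs, build the small (40S) and large (60S) subunits of the ribosome. They were taken by name, as every reference gene called Rpl or Rps followed by a number with at most a letter and a digit after it, together with Rplp0, Rplp1, Rplp2 and Rpsa, and without names that mark a pseudogene. The rule found 84 of the 25587 genes in the deposited table, 33 of them 40S genes and 51 of them 60S genes. They lie on 19 chromosomes, with 4 genes on X.

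RNA-Seq libraries were made from mouse oocytes to build a transcriptome of the stages at which the oocyte lays down DNA methylation. All 4 groups were wild-type C57BL/6Babr oocytes from mice aged 5 to 20 days: non-growing oocytes (NGOs), growing oocytes of an earlier (GO1) and a later (GO2) stage, and fully grown oocytes (FGOs), which the labels also call GV oocytes. By the study's account the later stages came from older mice, so stage and age of the mice cannot be told apart. Each stage was 1 library of many pooled oocytes, depleted of ribosomal RNA with Ribo-Zero. A dUTP strand-marking protocol was used for NGOs and FGOs and the ScriptSeq v2 kit for both growing stages. Stage and protocol cannot be told apart between these pairs, so changes were computed within each of them, from NGOs to FGOs and, separately, from GO1 to GO2.

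A ribosome holds nearly all of its proteins as single copies, so their genes are usually expressed together, and in many cells their mRNAs begin with a run of pyrimidines, the terminal oligopyrimidine (TOP) tract, through which growth signals control their translation. Growing oocytes make and store large numbers of ribosomes and mRNAs for the egg and early embryo. Ribosomal protein mRNAs have also been copied back into the mammalian genome very often, as intronless copies, most of them pseudogenes, whose sequence can be almost the same as that of the parent gene.

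The deposited values are RPKM, read numbers per kilobase of exon scaled to the total of a library. The read counts recovered from them summed over genes to 61596809 in NGOs and 68932865 in FGOs, and to 71836811 in GO1 and 132969928 in GO2. These sums exceed the uniquely mapped reads that the study gives for each library, so fragments were counted more than once (as mates or pieces of spliced reads, which is not stated), and every interval based on them is too narrow even for counting error. There were no replicates, so no difference between stages could be tested against the spread between oocyte collections, and the 95 % intervals given cover no more than counting error. All levels are relative to the total of a library. RNA per oocyte was not measured, and fewer cells of a type and less RNA per cell cannot be told apart.

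The oocyte identity of the libraries was checked on markers. The 10 oocyte markers were all above 0 in every library, with a summed level of 7978 RPKM in NGOs, 5814 RPKM in GO1, 5374 RPKM in GO2 and 4859 RPKM in FGOs. Zp2, a protein of the egg coat, was the most abundant of them in each library. The 11 granulosa cell markers summed to 6.46 RPKM in NGOs, 12.1 RPKM in GO1, 16.5 RPKM in GO2 and 19.1 RPKM in FGOs. None was at 0, and the nuclear receptor gene Nr5a2 was the most abundant in each library. In FGOs Nr5a2 made up 8.65 RPKM and Cyp19a1 6.08 RPKM of the sum. Of the 10 granulosa cell markers with at least 20 counts in NGOs and FGOs together, 7 were higher in FGOs and 3 lower. The 3 were Wt1, Foxl2 and Fst. The 9 stroma and vessel markers summed to 7.56 RPKM in NGOs, 5.36 RPKM in GO1, 8.52 RPKM in GO2 and 9.94 RPKM in FGOs, and 0, 1, 3 and 3 of them were at 0. Col1a1, a fibrillar collagen of connective tissue, was the most abundant of these in NGOs at 2.24 RPKM and stood at 0.0191 RPKM in FGOs, while Pecam1, an adhesion protein of vessel walls, led in the other libraries and made up 9.70 RPKM of the sum in FGOs. The 7 blood and immune markers in the table, of 9 listed, summed to 1.96 RPKM in NGOs, 0.572 RPKM in GO1, 0.616 RPKM in GO2 and 0.342 RPKM in FGOs, with 1, 4, 2 and 5 at 0. Hba-a1, which encodes alpha globin, led in NGOs at 0.902 RPKM and was at 0 in FGOs. The part that RNA of these other cells had in the levels of ribosomal protein genes was not tested.

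Of the 84 ribosomal protein genes, 83 were above 0, and 80 had at least 100 counts in every library. Rpl3l, the muscle copy of Rpl3, was listed at 0 in all 4 libraries. The median level of the 84 genes was 14.1 RPKM in NGOs, 10.9 RPKM in GO1, 10.8 RPKM in GO2 and 8.56 RPKM in FGOs. Over all genes in the table the median was 0.153 RPKM in NGOs, 0.143 RPKM in GO1, 0.166 RPKM in GO2 and 0.173 RPKM in FGOs. Thus the ribosomal protein genes stood above most genes at each stage: 83 of them were above the median gene in NGOs, GO1 and GO2, and 82 in FGOs. They were not all among the most abundant, since 40 passed the 90th percentile of all genes in NGOs and 35 did in FGOs, with 34 in GO1 and 33 in GO2. The highest of the 4 values was in NGOs for 46 genes, in GO1 for 22, in GO2 for 11 and in FGOs for 4.

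Together the 84 genes took 0.708 % of the counts on genes in NGOs (Wilson 95 % interval 0.705 to 0.710 %). In FGOs their share was 0.385 % (0.384 to 0.387 %). In the growing oocytes it was 0.380 % (0.378 to 0.381 %) for GO1 and 0.361 % (0.360 to 0.362 %) for GO2. NGOs were therefore the library with the largest share, and the other 3 lay close to each other.

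Although the ribosome needs its proteins in like numbers, the levels of their mRNAs were spread widely in each library (plot of levels by stage). Among the 83 genes above 0, the lowest and highest levels in NGOs were 0.352 and 359 RPKM, a 1020-fold range, with quartiles at 2.55 and 67.0 RPKM. The ratio of the 90th to the 10th percentile was 116 in NGOs and 105 in FGOs, and 79.9 in GO1 and 60.5 in GO2. In the 76 mitochondrial ribosomal protein genes, which serve the separate ribosome of the mitochondrion, the same ratio was 9.11 in NGOs and 9.21 in FGOs, and 8.45 in GO1 and 8.76 in GO2. By this ratio the 83 cytoplasmic genes together were more spread than the mitochondrial ones in each of the 4 libraries. For those with mostly unique sequence this did not hold in every library, as given below. The ratio of the highest to the lowest gene was closer between the 83 cytoplasmic and the 76 mitochondrial genes at some stages. It was 489 and 329 in GO1 and 508 and 422 in GO2. The 40S genes had medians of 31.9 RPKM in NGOs, 11.3 RPKM in GO1, 10.4 RPKM in GO2 and 15.9 RPKM in FGOs. The 60S genes had 9.29 RPKM in NGOs, 10.5 RPKM in GO1, 11.2 RPKM in GO2 and 7.06 RPKM in FGOs, so the 40S genes were the higher group in NGOs and FGOs and both groups were close in GO1 and GO2. There were 38 genes above 10 RPKM in every library and 6 below 1 RPKM in every library.

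**Figure D1:**
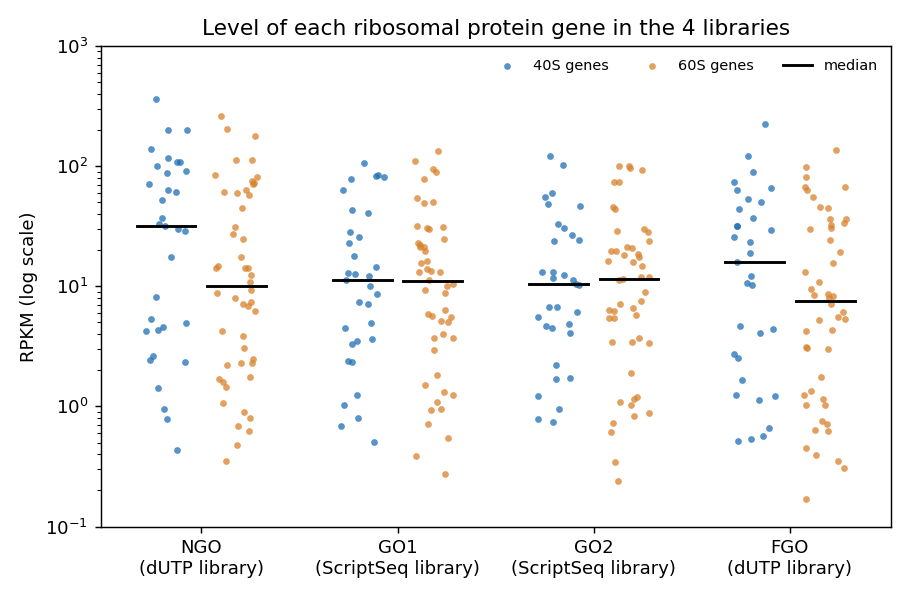
Level (RPKM, log axis) of each of the 83 ribosomal protein genes above 0 at each stage, from 1 library each; points are genes, colours mark 40S and 60S genes and bars are their medians. In NGOs the points run from 0.352 to 359 RPKM; Rpl3l, listed at 0, is left out.

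The 5 genes with the highest median over the libraries were Rps12, Rpl32, Rps7, Rpl4 and Rpl41. Rps12, a protein of the head of the small subunit (chr10:23785211-23787195, minus strand, GRCm38), had 359 RPKM in NGOs (354 to 365), 84.6 RPKM in GO1, 122 RPKM in GO2 and 224 RPKM in FGOs (220 to 228). It was highest in NGOs and lowest in GO1. Rpl32, a large subunit protein, had 260.0 RPKM in NGOs, 89.8 RPKM in GO1, 96.3 RPKM in GO2 and 137 RPKM in FGOs, with the same order of libraries. Rps7, a small subunit protein, had 199 RPKM in NGOs, 107 RPKM in GO1, 102 RPKM in GO2 and 122 RPKM in FGOs. Its 3 later values lay close together below that of NGOs. Rpl4, which lines the exit tunnel of the large subunit, had 113 RPKM in NGOs, 111 RPKM in GO1, 99.3 RPKM in GO2 and 67.2 RPKM in FGOs. Here FGOs were the lowest library and the other 3 differed little. Rpl41, the smallest ribosomal protein, had 203 RPKM in NGOs, 54.3 RPKM in GO1, 73.7 RPKM in GO2 and 99.1 RPKM in FGOs. It was lowest in GO1.

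The lowest genes above 0 were Rpl9, Rpl18, Rpl10a, Rps16 and Rps18, each of which encodes a core protein of its subunit. Rpl9 (chr5:65388364-65391443, minus strand) had 0.352 RPKM in NGOs (0.292 to 0.421), 0.389 RPKM in GO1, 0.239 RPKM in GO2 and 0.171 RPKM in FGOs. Its level was low at all stages, and lowest in FGOs. Rpl18 had 0.629 RPKM in NGOs, 0.273 RPKM in GO1, 0.345 RPKM in GO2 and 0.395 RPKM in FGOs. Rpl10a had 0.905 RPKM in NGOs, 0.551 RPKM in GO1, 0.614 RPKM in GO2 and 0.448 RPKM in FGOs. Both were highest in NGOs. Rps16 had 0.437 RPKM in NGOs from 39 counts, 0.684 RPKM in GO1, 0.791 RPKM in GO2 and 0.539 RPKM in FGOs. Rps18 had 0.791 RPKM in NGOs, 0.503 RPKM in GO1, 0.742 RPKM in GO2 and 0.513 RPKM in FGOs. None of these 5 reached 1 RPKM in any library, although their proteins are needed in each ribosome.

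Reads that match a parent gene and an intronless copy equally well can be assigned to either, because 1 place was kept for each read. The GENCODE annotation holds 1004 intronless copies of the ribosomal protein genes, found by at least 90 % identity over at least 50 % of the coding sequence. Of these, 170 had a row of their own in the table. In NGOs 48 of these rows had at least 100 counts, while 31 rows were at 0 in every library. Their counts made up 0.430 of those on the ribosomal protein genes themselves in NGOs and 0.407 in FGOs, and 0.332 in GO1 and 0.328 in GO2. With them, the share of counts on genes was 1.01 % in NGOs and 0.542 % in FGOs, and 0.506 % in GO1 and 0.480 % in GO2. The order of the libraries other than NGOs was FGOs, GO1 and GO2 with and without the copies.

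For 21 genes the copies held more counts than the gene itself in NGOs, and for 17 of these in every library (plot of copies against parents). This tally rests on recovered counts, which can be too small by a whole factor for 11 of the 21: at 2 times their own counts Rps27 (3940 against 4498 on copies) and Rplp1 (4110 against 5922) would leave it. The genes that follow were chosen after their values were seen. Rpl35, which sits at the exit of the tunnel of the large subunit, had 7.93 RPKM in NGOs, 10.1 RPKM in GO1, 8.97 RPKM in GO2 and 6.08 RPKM in FGOs. Its copy Gm2000 (chr1:156366040-156366484, plus strand), which is 99.7 % identical, had 536 RPKM in NGOs, 337 RPKM in GO1, 330.4 RPKM in GO2 and 332 RPKM in FGOs. The copy was above every ribosomal protein gene in each library. For Rpl9, whose own level was the lowest, 97.3 % of the counts on gene and copies in NGOs lay on copies. Levels of these parents and of their copies are therefore uncertain.

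**Figure D2:**
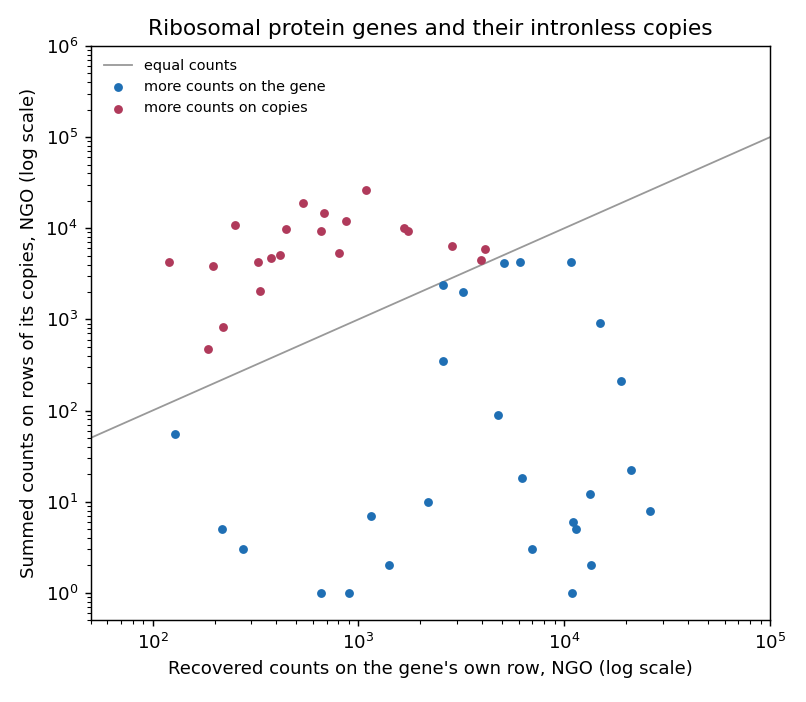
Recovered counts in NGOs of each ribosomal protein gene (horizontal log axis) and the summed counts on its intronless copies in the table (vertical log axis), for genes with counts on copies; points are genes and the line marks equal counts. The 21 red points above the line are genes with more counts on copies than on their own row.

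Rps6 and Rpsa, both chosen for their roles, were among these genes. Rps6, the small subunit protein phosphorylated by S6 kinase on growth signals, had 1.43 RPKM in NGOs, 2.38 RPKM in GO1, 1.74 RPKM in GO2 and 0.564 RPKM in FGOs. Its copy Gm16409 (chr14:73796541-73797290, minus strand) had 123 RPKM in NGOs, 45.7 RPKM in GO1, 47.1 RPKM in GO2 and 54.7 RPKM in FGOs. The parent was highest in GO1 and the copy in NGOs. Rpsa, a small subunit protein also known as a laminin receptor, had 2.61 RPKM in NGOs, 7.38 RPKM in GO1, 5.57 RPKM in GO2 and 1.22 RPKM in FGOs. Its copy Rpsa-ps2 (chr10:128776742-128777251, minus strand) had 202 RPKM in NGOs, 45.6 RPKM in GO1, 38.0 RPKM in GO2 and 70.7 RPKM in FGOs. The order of libraries again differed between parent and copy: the parent was higher in GO1 and GO2 and the copy in NGOs and FGOs.

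How far a gene shared sequence with others was measured as the percentage of 100-base windows of its coding sequence found exactly in another gene, for all genes but Rpl41, whose coding sequence is shorter than a window. No window was shared by 9 genes and every window by 21. The 12 genes above 0 with under 10 % of windows shared had a median of 70.1 RPKM in NGOs, and the 28 genes with at least 90 % shared had 7.24 RPKM. In GO1 these medians were 13.5 and 7.94 RPKM, in GO2 12.2 and 5.89 RPKM, and in FGOs 34.0 and 4.18 RPKM. By RPKM, the genes with mostly unique sequence were thus the higher of both groups in each library, by less in GO1 and GO2 than in NGOs and FGOs. With counts of copies added, per kilobase of coding sequence, these medians were 138 and 135 in NGOs and 87.7 and 65.6 in FGOs. In GO1 they were 37.5 and 64.6, and in GO2 37.4 and 62.7, so the order in GO1 and GO2 was the reverse on that scale. Across genes the relation by RPKM was weak. Spearman's rho between RPKM and windows shared was −0.315 in NGOs and −0.328 in FGOs, and −0.170 in GO1 and −0.213 in GO2 (82 genes). Rps12, the highest gene in NGOs, shared every window.

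The 90th to 10th percentile ratio of the 12 genes with under 10 % of windows shared was 15.7 in NGOs and 9.03 in FGOs, and 18.1 in GO1 and 13.5 in GO2. This was narrower than the spread of all 83 genes in each library. When the counts of copies were added to the parents and levels taken per kilobase of coding sequence, the ratio over the 83 genes in NGOs was 64.3, against 68.2 for the parents alone on that scale. It was 23.4 against 37.1 in GO1, 24.8 against 30.2 in GO2 and 49.5 against 77.6 in FGOs. For the 12 genes the ratio with copies on the same scale was 9.997 in NGOs and 7.28 in FGOs, and 5.64 in GO1 and 7.05 in GO2. With copies added, the 83 genes were thus less spread than without them, and more spread than the 12.

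The order of the ribosomal protein genes by level was much the same in libraries of the same protocol. Spearman's rho across 83 genes was 0.981 between NGOs and FGOs and 0.985 between GO1 and GO2. Between libraries of different protocol it ranged from 0.877 for GO1 and FGOs to 0.909 for GO2 and FGOs. The rho between level and exon length was −0.512 in NGOs and −0.494 in FGOs, and −0.523 in GO1 and −0.518 in GO2, so genes given a longer length had lower values per kilobase. The exon length on which RPKM rests had a median of 1434 bases in these genes, against 459 bases of coding sequence, and 57 of them had more than 2 times as much exon as coding sequence. For 41 genes this length is the smallest that made counts whole and may be a fraction of the length used, which touches these tallies and the relations with length. In all, 33 such relations were computed across genes, which are not independent replicates.

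From NGOs to FGOs, a comparison of the start and the end of oocyte growth within the dUTP protocol, the ribosomal protein genes were lower in FGOs as a group (plot of changes). Their median log2 change was −0.72, with quartiles at −0.96 and −0.45, against −0.01 for the 15256 genes that had 20 counts or more in the pair, whose quartiles were −0.66 and 0.65. Of 83 genes, 76 were below 0, and the intervals of 75 lay wholly below 0. A gene was called where it differed by at least 2-fold. No ribosomal protein gene was called higher, where 17.7 % of all genes were, and 16 were called lower (19.3 %), where 16.8 % of all genes were. With libraries scaled by a trimmed mean, the share called lower was thus near the background. The common, mostly smaller difference and the lack of higher calls set the median apart. At 1.5-fold, 54 of the 83 (65.1 %) were lower, against 27.2 % of all genes, and 0 were higher, against 27 % of all genes. The number called lower by 2-fold depended on the scaling. With total counts on genes it was 25 of the 83, where 19.0 % of all genes were lower. With the deposited totals it was 22, where 17.8 % of all genes were. With the median of ratios it was 16, where 16.3 % of all genes were.

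**Figure D3:**
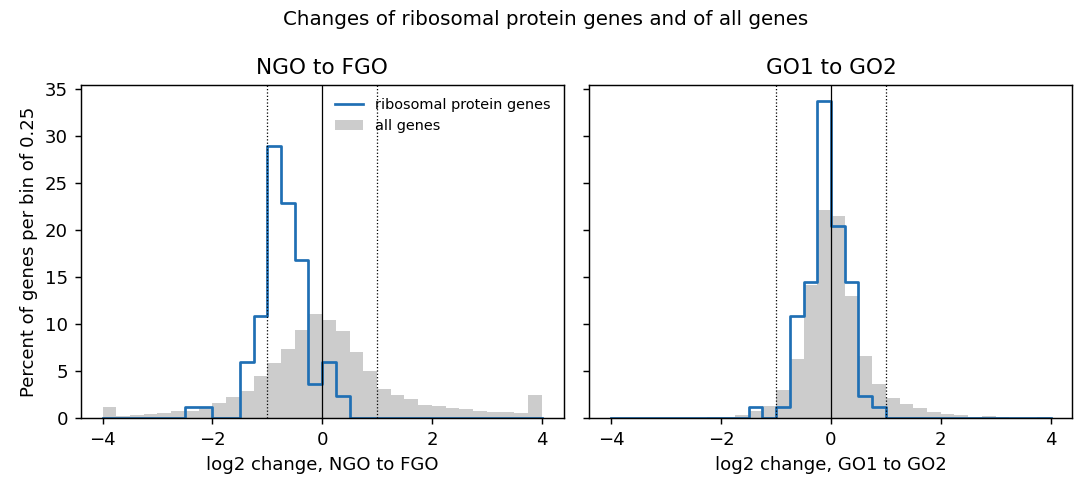
Distribution of log2 changes in both pairs of stages, as percentages of genes, for ribosomal protein genes (blue line) and all genes (grey) that reached 20 counts in the pair; dotted lines mark 2-fold, and genes beyond 4 on either side are put in the outermost bins. The ribosomal protein genes centre on −0.72 in the first pair and on −0.14 in the second.

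Scaling to total counts on genes instead of the trimmed mean moved the median of all genes from NGOs to FGOs by −0.10, and that of the ribosomal protein genes with it. Relative to all genes it was −0.71, a difference that a scaling leaves as it is by construction. The number of genes below 0 was 76 of 83 with the trimmed mean, 79 with total counts on genes, 77 with the deposited totals and 76 with the median of ratios. With the counts of copies added to their parents, the median was −0.73. Of the 83 genes, 18 were called lower and 0 higher, where 16.8 % and 17.7 % of all genes were. In bins of windows shared, the median change was −0.73 for under 10 %, −0.82 for 10 to 50 %, −0.65 for 50 to 90 % and −0.71 for at least 90 %. The lower level in FGOs was thus found with and without sequence shared with copies. The oocyte markers, which share no role with the ribosome, had a median log2 change of −0.78 in the same pair, with 8 of 10 below 0, 1 called higher and 3 called lower. The stroma and vessel markers, 7 of which had enough counts, had a median of −5.78 with 5 called lower and 1 higher, and Col3a1, another fibrillar collagen, had −7.39. The granulosa cell markers had a median of 0.97 over 10 genes, with 5 called higher and 2 lower. The part of these cells in the lower level of ribosomal protein genes was not tested.

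The largest falls were those of Rps23, Rps4y2 and Rps3. Rps23, a protein of the decoding centre (chr13:90923131-90924942, plus strand), had 61.2 RPKM in NGOs, 80.9 RPKM in GO1, 30.6 RPKM in GO2 and 12.3 RPKM in FGOs. It was highest in GO1 and lowest in FGOs, with a log2 change of −2.27 from NGOs to FGOs (−2.36 to −2.17). All of its windows were shared, and 45.0 % of the counts on gene and copies in NGOs lay on copies. Its copy Gm8618 had 87.4 RPKM in NGOs, 59.0 RPKM in GO1, 22.6 RPKM in GO2 and 14.1 RPKM in FGOs. Gene and copy were both low in FGOs, and the log2 change of the copy was −2.58.

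Rps4y2, an intronless gene that encodes a copy of the small subunit protein Rps4x (chr6:148354656-148355598, plus strand), had 109 RPKM in NGOs, 17.8 RPKM in GO1, 12.3 RPKM in GO2 and 23.2 RPKM in FGOs. Only NGOs were high, and the log2 change to FGOs was −2.17 (−2.24 to −2.11), a 4.51-fold lower level. Rps3, which helps form the mRNA entry channel and shares no window with another gene, had 29.8 RPKM in NGOs, 4.52 RPKM in GO1, 6.77 RPKM in GO2 and 10.6 RPKM in FGOs. It too was highest in NGOs, and its log2 change to FGOs was −1.44 (−1.48 to −1.40). Rps23 and Rps4y2 were the 2 genes lower by at least 4-fold, where 5.53 % of all genes were. No gene was higher by that much, where 8.57 % of all genes were.

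The 7 genes above 0 from NGOs to FGOs included the duplicated copies Rpl10l, Rpl39l and Rpl7l1, and under scaling to total counts on genes 4 genes were above 0. None reached 2-fold. The largest values among genes that reached 100 counts belonged to copies, which are taken with their parents in what follows.

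Both subunits had a median below 0 in this pair. For the 40S subunit the median log2 change was −0.83, with 9 of 33 genes called lower, and for the 60S subunit it was −0.67, with 7 of the 50 genes above 0 RPKM called lower, where 16.8 % of all genes were. The difference between the subunits was not tested. The stalk of the large subunit, which recruits the elongation factors, is built from Rplp0, Rplp1 and Rplp2. Rplp0 had 59.8 RPKM in NGOs, 21.1 RPKM in GO1, 23.8 RPKM in GO2 and 32.6 RPKM in FGOs. Rplp1 had 75.1 RPKM in NGOs, 93.7 RPKM in GO1, 73.7 RPKM in GO2 and 44.6 RPKM in FGOs. Rplp2 had 0.803 RPKM in NGOs, 1.84 RPKM in GO1, 3.43 RPKM in GO2 and 0.629 RPKM in FGOs. With counts of its copies added, per kilobase of coding sequence, Rplp1 was highest in NGOs, at 263, with 180 in GO1. By RPKM of the genes alone, the highest libraries of the 3 stalk genes were NGOs, GO1 and GO2 in turn. None was called from NGOs to FGOs: the log2 changes were −0.82 for Rplp0, −0.70 for Rplp1 and −0.30 for Rplp2, whose interval spanned 0 (−0.62 to 0.02). Rps27a, which is made as a fusion with ubiquitin, had 31.9 RPKM in NGOs, 12.7 RPKM in GO1, 11.4 RPKM in GO2 and 18.9 RPKM in FGOs, and its change was −0.70. Of the genes with many copies, Rps6 had −1.28 and Rpsa −1.04.

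Several ribosomal proteins have duplicated genes, some of them best known from testis. The product of some of these, though not of all, is known to replace that of the parent. Rpl39l, the copy of Rpl39, had 27.2 RPKM in NGOs, 13.1 RPKM in GO1, 16.3 RPKM in GO2 and 36.5 RPKM in FGOs. Rpl39 itself, at the exit tunnel, had 3.06 RPKM in NGOs, 5.16 RPKM in GO1, 7.05 RPKM in GO2 and 3.07 RPKM in FGOs. The copy was above the parent at every stage, by 8.89 times in NGOs, 2.55 times in GO1, 2.31 times in GO2 and 11.9 times in FGOs. With recovered counts taken per kilobase of coding sequence, these ratios were 5.15 for NGOs, 1.47 for GO1, 1.34 for GO2 and 6.88 for FGOs. Rpl39 has 18 intronless copies in GENCODE and none with a row in the table, so reads placed on them could not be counted and the level of Rpl39 is uncertain. Rpl39l had the largest log2 change above 0 of the ribosomal protein genes that reached 100 counts, 0.48 (0.40 to 0.55), and that of Rpl39 was 0.06.

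Rpl10l, the copy of the late-joining large subunit protein Rpl10, had 3.87 RPKM in NGOs, 3.74 RPKM in GO1, 3.35 RPKM in GO2 and 4.35 RPKM in FGOs. Rpl10 had 1.46 RPKM in NGOs, 3.69 RPKM in GO1, 3.44 RPKM in GO2 and 0.631 RPKM in FGOs. The copy was nearly level across stages, with a change of 0.22 from NGOs to FGOs (0.04 to 0.41), while Rpl10 was low in FGOs, with −1.15. Rpl10 is among the genes with more counts on intronless copies: with these added, and per kilobase of coding sequence, Rpl10l stood at 0.184 of Rpl10 in NGOs and 0.429 in FGOs.

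Rpl7l1 had 6.26 RPKM in NGOs, 5.87 RPKM in GO1, 6.65 RPKM in GO2 and 7.06 RPKM in FGOs, and Rpl7 had 57.5 RPKM in NGOs, 30.7 RPKM in GO1, 29.0 RPKM in GO2 and 30.8 RPKM in FGOs. The log2 change of the copy was 0.22 (0.13 to 0.32) and that of the parent was −0.85, both below 2-fold. Rpl36al, which lies outside the naming rule, had 27.2 RPKM in NGOs, 21.6 RPKM in GO1, 23.5 RPKM in GO2 and 33.1 RPKM in FGOs. Rpl36a had 14.1 RPKM in NGOs, 19.7 RPKM in GO1, 17.5 RPKM in GO2 and 8.66 RPKM in FGOs. The ratio of copy to parent by RPKM was largest in FGOs, at 3.82, with log2 changes of 0.33 for Rpl36al and −0.65 for Rpl36a. Per kilobase of coding sequence the parent was the higher gene for GO1 (ratio 0.893) but not for GO2 (1.10). Once counts on the intronless copies of Rpl36a were added, the parent was higher at both growing stages (0.564 for GO1, 0.741 for GO2). Rpl36al stayed above it for NGOs (1.40) and FGOs (2.75). The order at the growing stages thus depends on the length used and on the copies.

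In the remaining pairs the log2 change of the copy from NGOs to FGOs was below 0, or the copy had no value. Rpl22l1 had 14.9 RPKM in NGOs, 4.02 RPKM in GO1, 3.71 RPKM in GO2 and 8.36 RPKM in FGOs, and Rpl22 had 17.5 RPKM in NGOs, 13.9 RPKM in GO1, 12.05 RPKM in GO2 and 13.2 RPKM in FGOs. The copy was below its parent at each stage, with changes of −0.78 and −0.35. Rps27l had 52.0 RPKM in NGOs, 12.1 RPKM in GO1, 10.4 RPKM in GO2 and 31.5 RPKM in FGOs, and Rps27 had 139.7 RPKM in NGOs, 63.6 RPKM in GO1, 55.6 RPKM in GO2 and 73.7 RPKM in FGOs. In RPKM the parent was higher throughout, but per kilobase of coding sequence the copy stood at 1.19 of the parent in NGOs and 1.37 in FGOs, and at 0.610 in GO1 and 0.596 in GO2, so the order of this pair depends on the length used. The coding scale rests on the recovered count of Rps27, which may be too small, and with the counts on copies of Rps27 added the ratio was 0.556 in NGOs and 0.607 in FGOs, and 0.353 in GO1 and 0.338 in GO2. The changes were −0.67 for Rps27l and −0.87 for Rps27. Rps4x, the X-linked parent of Rps4y2, had 17.4 RPKM in NGOs, 11.3 RPKM in GO1, 13.2 RPKM in GO2 and 15.9 RPKM in FGOs. It was nearly level from NGOs to FGOs (−0.07), so that the copy stood at 6.24 times the parent in NGOs and 1.46 times in FGOs by RPKM, and at 1.57 times in GO1 and 0.929 in GO2. Per kilobase of coding sequence it stood at 3.62 times the parent in NGOs and at 0.846 of it in FGOs, and at 0.913 in GO1 and 0.539 in GO2. The order in GO1 and FGOs thus depends on the length used, while the copy was above the parent in NGOs and below it in GO2 on both scales. Rpl3, the parent of the copy listed at 0, had 72.4 RPKM in NGOs, 31.2 RPKM in GO1, 28.2 RPKM in GO2 and 29.8 RPKM in FGOs, and a change of −1.23.

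From GO1 to GO2, within growth and within the ScriptSeq kit, the ribosomal protein genes differed little. Their median log2 change was −0.14, with quartiles at −0.31 and 0.18, against 0.02 for all 15738 genes compared. Of 83 genes, 32 were above 0 and 51 below, and under the other scalings 49 or 50 were below. No gene was called higher, where 6.89 % of all genes were, and 1 was called lower, where 2.85 % of all genes were. The gene called lower was Rps23, with a log2 change of −1.44 (−1.49 to −1.39). The intervals of 44 genes lay wholly below 0 and of 26 wholly above.

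After Rps23 the lowest log2 changes in this pair were those of Rps26 and Rpl9, neither of which reached 2-fold. Rps26, which lies at the mRNA exit, had 100.8 RPKM in NGOs, 83.1 RPKM in GO1, 48.4 RPKM in GO2 and 44.0 RPKM in FGOs. It was lower in each later stage, with log2 changes of −0.81 from GO1 to GO2 and −1.14 from NGOs to FGOs. The log2 change of Rpl9 was −0.73 alone and 0.09 with its copies, so its direction depended on whether copies were added. The gene had 152 counts in GO1 and 178 in GO2, and its copies had 781 and 1762. The largest changes above 0 were those of Rplp2 with 0.86 (0.72 to 1.01), Rps3 with 0.55 (0.49 to 0.62) and Rps18 with 0.52. Rplp2 was the 1 ribosomal protein gene higher by at least 1.5-fold, where 14.3 % of all genes were, and 5 were lower by that much, where 9.51 % of all genes were. At 4-fold, 0 were higher and 0 lower, where 1.51 % and 0.254 % of all genes were. Across ribosomal protein genes the changes of both pairs had a Spearman rho of 0.227 (83 genes), against 0.543 over 14841 genes.

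The mean log2 RPKM of the dUTP libraries minus that of the ScriptSeq libraries had a median of 0.22 over 83 ribosomal protein genes and 0.12 over 12918 genes. In this contrast stage and protocol cannot be told apart. The difference was at least 2-fold upward for 21 genes (25.3 %) and downward for 12 (14.5 %), where 14.4 % and 5.34 % of all genes were. For the 40S genes the median was 0.64, with 13 upward and 4 downward, and for the 60S genes −0.02, with 8 in each direction. In the 12 genes with under 10 % of windows shared it was 1.23, with 8 upward and 0 downward.

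The genes given from near the ends of this contrast were chosen after their values were seen. Rpl37a, a zinc-binding protein of the large subunit, had 177 RPKM in NGOs, 13.1 RPKM in GO1, 18.2 RPKM in GO2 and 66.5 RPKM in FGOs. It was high in the dUTP libraries and low in the ScriptSeq libraries, with a difference of 2.81 on the log2 scale. Rpl5, which binds the 5S ribosomal RNA, had 7.42 RPKM in NGOs, 21.9 RPKM in GO1, 19.7 RPKM in GO2 and 5.34 RPKM in FGOs. It was the reverse, higher in GO1 and GO2. Among the lowest differences was −2.15 for Rps3a, a small subunit protein.

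Start sequences were read from the RefSeq promoter table (GRCm38.p6), where 63 of the 84 genes had an entry, 62 by symbol and 1 by a synonym, with 75 promoters in all. A start was counted as TOP-like where the first transcribed base was C and the next 4 bases were each C or T on the strand of the gene. This held for 13 of the 75 promoters (17.3 %), against 823 of 32851 promoters of all genes (2.51 %) and 0 of 75 promoters of mitochondrial ribosomal protein genes. A run of at least 8 bases of C or T within 10 bases of the start was found in 22 promoters of ribosomal protein genes (29.3 %), against 7.89 % of all promoters and 6.67 % of those of mitochondrial ribosomal protein genes. The 21 genes with no entry included Rpl7, Rps20, Rpl21, Rpl32, Rps4y2, Rplp1, Rpl29, Rps27a, Rpl23a, Rps29, Rpl30, Rpl8, Rpl3, Rpl36, Rps14 and Rpl17.

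The sequences below show 10 bases on either side of the annotated start, which is the base in the middle, with the longest run of C and T in capitals. They are printed to show the feature that was counted, which most of the matched promoters lacked. Rps6 (chr4:86857357-86857377, minus strand), Rps27 (chr3:90213638-90213658, minus strand), Rpl35 (chr2:39005121-39005141, minus strand) and Rplp2 (chr7:141447641-141447661, plus strand) have long runs over the start. Rpl39l (chr16:10170218-10170238, plus strand) and Rps3 (chr7:99483699-99483719, minus strand) are given for contrast, with a run ahead of the start and a short run.
Rps6: gaagtcgggCCTCTTTTTCgt
Rps27: cgctttcgCTCCTTTCCggcg
Rpl35: ccgCCCTTTCCTCTTTCTCTC
Rplp2: cagcgTCTTCCTTTCgccgcc
Rpl39l: aggCCTTTCCggatttccggt
Rps3: aagggTCgccgcgctgcgcgg

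In genes with a TOP-like start the median log2 change from NGOs to FGOs was −0.65, and in the other matched genes it was −0.70. Their median levels in NGOs were 5.37 and 13.2 RPKM. A match describes the sequence at an annotated start and no more, and starts used in oocytes were not read from these data.

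Some ribosomal proteins and the named pseudogenes lie outside the naming rule. Gnb2l1, which encodes the small subunit scaffold RACK1, had 20.9 RPKM in NGOs, 4.41 RPKM in GO1, 5.24 RPKM in GO2 and 10.7 RPKM in FGOs. It was highest in NGOs, with a log2 change of −0.91 to FGOs. The 60 pseudogene rows named after ribosomal proteins, 24 of which had enough counts, had a median of −0.87. Of the 24, 11 were called lower and 1 higher, where 16.8 % and 17.7 % of all genes were. The median of these rows thus lay on the same side of 0 as that of the ribosomal protein genes.

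Elongation factors and other classic TOP mRNAs had much the same median as the ribosomal protein genes from NGOs to FGOs. The 18 genes had a median log2 change of −0.73, with 3 called lower and 0 higher, where 16.8 % and 17.7 % of all genes were. Eef2, the translocation factor, had 195 RPKM in NGOs, 55.4 RPKM in GO1, 57.9 RPKM in GO2 and 93.3 RPKM in FGOs. Eef1a1, which brings aminoacyl-tRNA to the ribosome, had 172 RPKM in NGOs, 119 RPKM in GO1, 114 RPKM in GO2 and 83.4 RPKM in FGOs. Both were highest in NGOs, with changes of −1.01 and −0.99. Vim, an intermediate filament protein of stromal cells, had 0.701 RPKM in NGOs and 0.0537 RPKM in FGOs, a change of −3.57.

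The other lists of the translation and ribosome assembly machinery had medians nearer 0. In the same pair, 16.8 % of all genes were called lower and 17.7 % higher. The 76 mitochondrial ribosomal protein genes had a median of −0.13, with 1 called higher and 5 lower. The 19 initiation genes had −0.23, with 1 called lower, Eif4ebp1, which encodes an inhibitor of the cap-binding protein. It had 12.6 RPKM in NGOs, 2.20 RPKM in GO1, 1.57 RPKM in GO2 and 1.29 RPKM in FGOs, a change of −3.23. The cap-binding protein gene Eif4e, with −0.19, and Eif5, with −0.17, had the highest medians over the 4 libraries in that list. The 30 ribosome biogenesis genes had a median of −0.16, with 2 called higher and 1 lower. Npm1, a nucleolar chaperone, had 115 RPKM in NGOs, 227 RPKM in GO1, 174 RPKM in GO2 and 94.8 RPKM in FGOs, and was highest in GO1. Nop58, a core protein of box C/D particles, had a change of 0.36, and Fbl, the methyltransferase of the same particles, had −1.72.

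The 14 RNA polymerase I genes in the table, of 15 names, had a median of −0.08. Of these, 1 was called lower, the termination factor gene Ttf1 (−1.33), where 16.8 % of all genes were. The initiation factor genes Rrn3 and Taf1b, with the highest medians over the 4 libraries in this list, had 0.04 and 0.36. The 15 genes that control transcription or translation of ribosomal protein genes had a median of −0.44 over the 14 with enough counts. The 2 called lower were Tsc2 (−1.55) and Rps6kb2 (−1.06), where 16.8 % of all genes were called lower. Larp4, an RNA-binding protein, had −0.18 and the transcription factor gene Yy1 had −0.60, while Myc had 0 counts in NGOs and 7 in FGOs, and 2 each in GO1 and GO2. From GO1 to GO2 the medians of the elongation and TOP list, the initiation factors, the mitochondrial ribosomal protein genes, the biogenesis genes, the RNA polymerase I genes and the control list were −0.08, −0.23, 0.06, −0.07, 0.03 and −0.24. The pseudogene rows had −0.18, so that none of these medians came near 2-fold.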

How the data were processed

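RNA-Seq values of the 4 oocyte stages, each from 1 library, were used. They were deposited as linear RPKM, made by the authors, although they stand under a name that speaks of read counts. The authors trimmed reads with Trim Galore 0.2.8 and mapped them to GRCm38 with TopHat2 2.0.9 under the option that keeps 1 place per read (-g 1). The program, annotation and strand setting behind the gene values are not given in the sources used here.

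Counts were recovered by finding the library totals and exon lengths that made RPKM times length times total whole, within 0.005. The totals were 110595000 for NGOs, 126797000 for GO1, 241386000 for GO2 and 119629000 for FGOs, with at least 99.38 % of the values of single-exon genes whole. Lengths of the ribosomal protein genes above 0 were the GENCODE exon union (release M21) for 38 and a transcript or single exon for 4. For 41 the smallest length that made counts whole was used, which can make their counts too small by 1 factor in all libraries and leaves RPKM as it is; shares, copy tallies, lengths and values per coding length rest on it. The recovery and the calls were tested on simulated data.

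Libraries were scaled with a trimmed mean of log ratios (30 % of ratios and 5 % of mean expression trimmed at each end), with a prior count of 1 and at least 20 counts in the pair. A gene was called past 2-fold. Intervals are 95 % and take each recovered count as independent, although the counts exceed the mapped reads of the study, which makes them too narrow: exact Poisson for RPKM, exact binomial for ratios and Wilson for shares. With 1 library per stage no test was run. The alternatives were 3 other scalings, other count minimums, prior counts and fold thresholds, fewer genes, and the handling of copies. Copies were found with blastn 2.17.0, and Python 3.11.15, numpy 2.4.6, pandas 2.3.3, scipy 1.17.1 and matplotlib 3.10.9 were used.

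The ribosomal protein genes and all lists were chosen with earlier results of these data known. The rule named the 5 genes highest and the 5 lowest by median RPKM, the 3 largest log2 changes in each direction and pair where the higher library had 100 counts or more, the duplicated copies with their parents, the stalk genes, Rps27a, Rps6 and Rpsa, and genes listed at 0. In each related list it named the 2 genes with the highest median RPKM over the libraries and the gene with the largest change. Protein sequences were left out because no protein table was at hand.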

Additional observations from a re-analysis of the deposited data

How the results depend on the processing

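Of the recomputed values, 48 from planned and 12 from added settings stayed within their interval or within 1.5 times the count. Another 26 and 8 did not, and no direction was reversed. For medians this interval was taken over the genes, which are not replicates. It describes the spread between genes and neither counting error nor the spread between libraries. The median log2 change from NGOs to FGOs was between −0.82 and −0.69 under the 9 alternatives run for it. The settings on intronless copies and shared windows were added after the data had been seen. From NGOs to FGOs, the genes called lower numbered 25 with scaling to total counts on genes, where 19.0 % of all genes were lower. They numbered 54 at 1.5-fold, where 27.2 % of all genes were, and 2 at 4-fold, where 5.53 % were. They numbered 6 of 45 without duplicated copies and genes with a named pseudogene row, and 2 of 12 with under 10 % of windows shared. In both, fewer genes were compared, and 16.8 % of all genes were called lower. From GO1 to GO2, 1 gene was higher and 5 were lower at 1.5-fold, where 14.3 % and 9.51 % of all genes were. At 4-fold 0 were lower, where 0.254 % of all genes were. Among those with under 10 % of windows shared 0 were lower by 2-fold, where 2.85 % of all genes were.

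The share of counts on genes in NGOs, GO1 and GO2 was 0.710, 0.383 and 0.363 % without mitochondrial and structural RNA genes. In NGOs, GO1, GO2 and FGOs it was 0.809, 0.419, 0.398 and 0.436 % without the 10 genes with the most counts. It was 0.808, 0.423, 0.403 and 0.438 % with the named pseudogene rows and ribosomal protein genes outside the naming rule. With the 170 intronless copies that had a row of their own, it was 1.01, 0.506, 0.480 and 0.542 %. The median level was 74.98, 62.8, 63.8 and 45.6 as TPM, which is RPKM rescaled to the same sum in each library, and 32.9, 15.6, 15.9 and 19.3 RPKM without duplicated copies and genes with a named pseudogene row. In the 13 genes with under 10 % of windows shared, Rpl3l included, it was 52.0 RPKM in NGOs and 31.5 RPKM in FGOs. These shares and medians moved because the total, the unit or the genes were others.

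With 1 library per stage, no value can be set against the spread between oocyte collections, and the intervals are too narrow because fragments were counted more than once. The counts of the lowest genes are few: Rps16 had 39 in NGOs. Which of the reads on copies came from the parent genes was not tested, since reads were not available.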
